A study of Homo sapiens with 2 samples.

Results

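The miRNAs described here run from miR-4417 to miR-4540 in the numbering of human miRNAs, without miR-4454, miR-4461, miR-4463, miR-4484 and miR-4485. They were taken by name from the array, with no use of measured values, which gave 137 of the 2549 miRNAs that the array reads. Of these 137 miRNAs, 30 (21.9%) were detected on at least 1 of the 2 arrays, against 457 (17.9%) of all miRNAs. After scaling, miR-4430, miR-4487 and miR-4433a-5p were between 4.51-fold and 5.02-fold lower on the oe-HOTTIP-labelled array, and miR-4532, miR-4499, miR-4497 and miR-4530 were between 3.36-fold and 3.64-fold higher. miR-4455, miR-4440 and miR-4481 were detected only on that array. The other 107 miRNAs were detected on neither array.

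A mature miRNA is a short RNA, cut from a hairpin precursor, that leads the Argonaute protein to messenger RNAs and lowers their translation or stability. The bases at positions 2 to 8, its seed, do most of the pairing with the target, so miRNAs with the same seed are usually counted as one family. The number in a name follows the order of registration and says nothing of function. Entries with numbers as high as these were registered from deep sequencing, and for most of them little is known of targets. Exosomes are small vesicles that cells release, and their RNA is a selection of the RNA of the cell.

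The RNA came from exosomes of FaDu, an established line grown from a human squamous cell carcinoma of the hypopharynx. The control cells (oe-NC) carried a negative control plasmid and the others (oe-HOTTIP) a plasmid for overexpression of the long noncoding RNA HOTTIP, both introduced by lentivirus according to the treatment labels, while the methods describe lipid transfection. Each group had 1 array, with 200 ng of total RNA labelled per array. There are thus no replicates behind any difference and no p-values, and errors below are SDs over the repeated spots within an array, which leave out the variation between cultures. For each array the title and treatment contradict the description, which places it in the opposite group. Titles were followed, so every direction is reversed if the descriptions hold.

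Sequences are shown for the detected miRNAs on which the results turn, as far as RefSeq (GRCh38.p14) lists them under these names, which held for 123 of the 137 miRNAs. Capitals mark the seed, bases 2 to 8. The first set holds the miRNAs detected on both arrays, in the order of their difference from lowest to highest on the oe-HOTTIP-labelled array.
miR-4430: aGGCUGGAgugagcggag
miR-4443: uUGGAGGCguggguuuu
miR-4478: gAGGCUGAgcugaggag
miR-4433a-3p: aCAGGAGUgggggugggacau
miR-4516: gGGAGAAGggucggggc
miR-4534: gGAUGGAGgaggggucu
miR-4507: cUGGGUUGggcugggcuggg
miR-4466: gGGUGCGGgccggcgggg
miR-4505: aGGCUGGGcugggacgga
miR-4465: cUCAAGUAgucugaccagggga
miR-4442: gCCGGACAagagggagg
miR-4530: cCCAGCAGgacgggagcg
miR-4497: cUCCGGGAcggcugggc
miR-4499: aAGACUGAgaggaggga

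The second set holds those of the miRNAs with the largest bounds that RefSeq lists, and miR-4434, which is detected on neither array and shares its seed with miR-4516.
miR-4455: aGGGUGUGuguguuuuu
miR-4440: uGUCGUGGggcuugcuggcuug
miR-4481: gGAGUGGGcuggugguu
miR-4502: gCUGAUGAugauggugcugaag
miR-4535: gUGGACCUggcugggac
miR-4436b-5p: gUCCACUUcugccugcccugcc
miR-4434: aGGAGAAGuaaaguagaa

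miR-4417, miR-4419a, miR-4433a-5p, miR-4459, miR-4472, miR-4487 and miR-4532 were detected and are named only.

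Before scaling, signals on the oe-HOTTIP-labelled array were higher, by a median of 0.67 (log2) for the 261 miRNAs with detection on both arrays and by 0.77 and 0.51 for the labelling spike-ins dmr_285 and dmr_31a. Each array was therefore divided by its 90th percentile over these 261 miRNAs. Negative control spots averaged 3.87 ± 2.37 (SD, 976 spots) on the oe-NC-labelled array and 3.45 ± 2.21 (SD, 975 spots) on the other. Markers of squamous epithelium were detected on both arrays for 4 of 5 miRNAs, with summed intensities of 513.7 and 618.3 before scaling. Most of this came from miR-205-5p, at 415 and 490, while miR-31-5p stood at 10.5 and 10.7. The remaining marker, miR-203a-3p, known from stratified epithelium, was detected on neither array. Markers of blood cells and serum were also detected for 4 of 5, with summed intensities of 2267 and 2600, nearly all from the red cell miRNA miR-451a, and their part in the results below was not tested. Of the muscle and neuron markers, miR-1-3p and miR-124-3p were detected on neither array and miR-133a-3p only on the oe-NC-labelled array.

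Over both arrays, 6 of the 30 detected miRNAs (20.0%) were at least 2-fold lower on the oe-HOTTIP-labelled array and 16 (53.3%) were at least 2-fold higher, where 25.2% and 33.9% of all 457 detected miRNAs were. Of these, 1 of the 6 and 9 of the 16 are bounds from miRNAs detected on 1 array only. Without scaling the counts of lower and higher miRNAs were 3 and 21, against 63 and 223 of all miRNAs. With a higher floor for the bounds they were 5 and 10, against 88 and 86. With normexp, a model-based background correction, they were 4 and 7 with no offset, against 84 and 53. With an offset of 50 they were 2 and 2, against 26 and 8. Among the 19 detected on both arrays, 5 were lower and 7 higher by 2-fold, 26.3% and 36.8%, against 21.1% and 18.0% of the 261. Their median log2 difference was 0.53, against 0.02 for the 261. These shares describe 1 pair of arrays and no test of their difference from the rest was possible. Of the 19 differences, 18 were larger than their spread over spots, among them all 12 of at least 2-fold. This spread is the root of the summed squared relative SDs of both arrays on the log2 scale. It was 0.65 at most (miR-4478), so any 2-fold difference among these miRNAs exceeds it in any case.

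**Figure D1:**
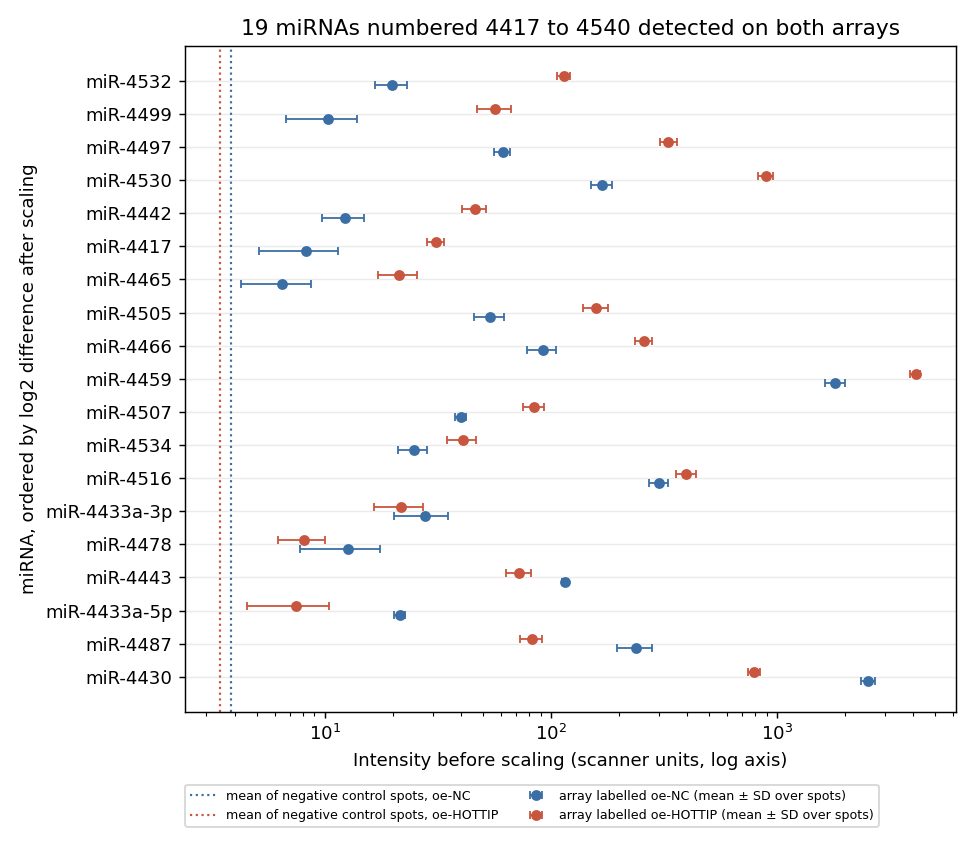
Intensity before scaling (log axis) of the 19 miRNAs detected on both arrays, as mean ± SD over spots, with the mean of the negative control spots as dotted lines. The 6 lowest rows, from miR-4430 to miR-4433a-3p, were brighter on the oe-NC-labelled array and the 13 rows above on the other.

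Intensities here and below are those before scaling, with the oe-NC-labelled array first. miR-4430 had 2525 ± 181 (SD, 17 spots) on the oe-NC-labelled array and 789 ± 47.2 (SD, 20 spots) on the oe-HOTTIP-labelled array. Every spot was well above background on both arrays, and the log2 difference after scaling was -2.33 with a spread of 0.13. Its 2 probes gave the same difference to the second decimal. Its seed, GGCUGGA, is also that of miR-3652, and its mature sequence lies at chr2:33418519-33418536 on the plus strand (GRCh38.p14), where no other gene is annotated.

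miR-4487 had intensities of 238 ± 41.6 (SD, 18 spots) and 82.5 ± 9.23 (SD, 19 spots), a log2 difference of -2.18 (spread 0.30). Its probes differed in brightness, at 411 and 65.0 on the oe-NC-labelled array, but gave -2.16 and -2.29. miR-4430 and miR-4487 were thus at least 2-fold lower from each probe taken alone, and they were so under all 16 settings of the processing in which the columns of the authors' table were not taken as named.

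The arms of the miR-4433a hairpin were both lower on the oe-HOTTIP-labelled array. miR-4433a-5p had 21.5 ± 1.21 (SD, 15 spots) on the oe-NC-labelled array, where all 15 spots were well above background, and 7.49 ± 2.96 (SD, 20 spots), where 3 of 20 were. The log2 difference was -2.17 with a spread of 0.58. With normexp and an offset of 50 it was -0.85, under 2-fold. For miR-4433a-3p the intensities were 27.7 ± 7.42 and 21.8 ± 5.38 (SD, 20 spots each), 1.99-fold lower and so just outside the threshold (spread 0.53 on the log2 scale). It was at least 2-fold lower under 5 of the 16 settings. miR-4433b-3p, which shares a run of 12 bases with miR-4433a-3p, was detected on the oe-HOTTIP-labelled array only, at 7.36 ± 2.50 (SD, 19 spots) against 3.09 ± 1.65 (SD, 19 spots), a bound of 1.52-fold higher. The 3p arms lie close together at chr2:64340809-64340829 (plus strand) and chr2:64340769-64340789 (minus strand, GRCh38.p14), within the span of the noncoding gene LOC105374768.

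miR-4443 had 115 ± 4.03 (SD, 18 spots) and 72.3 ± 9.01 (SD, 20 spots), a log2 difference of -1.33 (spread 0.19). Most of its signal came from its brighter probe, at 214 and 134, while the other probe stood at 16.5 and 11.0, and the probes gave -1.33 and -1.24. miR-4478 was close to background, at 12.6 ± 4.90 (SD, 20 spots) and 8.09 ± 1.89 (SD, 18 spots), with 11 and 2 spots well above background and a log2 difference of -1.30 (spread 0.65). Without scaling, these last differences were -0.68 and -0.64 and did not reach 2-fold. With normexp they were -0.99 and -0.66 with an offset of 50, and -1.27 and -0.96 with no offset. With detection set at over 50% of spots well above background they were -0.84 and, as a bound, -0.75.

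Among the higher miRNAs detected on both arrays, miR-4532 had the largest difference, with 19.9 ± 3.25 on the oe-NC-labelled array and 114 ± 7.39 on the oe-HOTTIP-labelled array (SD, 19 spots each), a log2 difference of 1.87 (spread 0.25). miR-4499 had 10.4 ± 3.59 (SD, 19 spots) and 56.7 ± 9.69 (SD, 18 spots), a difference of 1.80 (spread 0.56). On the oe-NC-labelled array, 11 of 19 and 9 of 19 spots of these miRNAs were well above background, against all spots on the other array. With normexp and an offset of 50 their differences were 0.57 and 0.17. miR-4499 lies within CRYL1, the crystallin lambda gene, at chr13:20433830-20433846 (minus strand, GRCh38.p14).

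miR-4497 and miR-4530 were the higher miRNAs that stayed at least 2-fold higher under the same 16 settings. miR-4497 had 61.2 ± 5.04 (SD, 19 spots) and 331 ± 28.7 (SD, 20 spots), a log2 difference of 1.78 (spread 0.17). Its brighter probe carried most of the signal, at 117 and 621, and gave 1.75, while the dimmer probe, at 5.01 and 39.8, gave 2.34 from a level near that of the negative controls. miR-4530 had 168 ± 17.8 and 889 ± 66.5 (SD, 20 spots each), a difference of 1.75 (spread 0.19), and its probes were equal in brightness and in difference. The mature sequence of miR-4497 lies within the span of TRPV4, the gene of a cation channel, at chr12:109833350-109833366 (plus strand), and that of miR-4530 at chr19:39409629-39409646 (minus strand, GRCh38.p14), where no other gene is annotated.

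miR-4442 and miR-4417 were higher by nearly the same amount. miR-4442 had 12.3 ± 2.60 (SD, 20 spots) and 46.1 ± 5.50 (SD, 17 spots), a log2 difference of 1.26 (spread 0.35), and it lies within TOP2B, the gene of a DNA topoisomerase. miR-4417 had 8.28 ± 3.17 and 31.0 ± 2.61 (SD, 20 spots each), a difference of 1.25 (spread 0.56). Only 5 of its 20 spots were well above background on the oe-NC-labelled array. With normexp and an offset of 50, miR-4442 stood at 0.01 and miR-4417 at -0.14.

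miR-4465 shares its seed, UCAAGUA, with miR-26a-5p and miR-26b-5p, members of a conserved family known to target the histone methyltransferase EZH2. It lay just inside the threshold, with 6.48 ± 2.22 on the oe-NC-labelled array and 21.4 ± 4.17 on the oe-HOTTIP-labelled array (SD, 19 spots each). None of the 19 spots was well above background on the oe-NC-labelled array and all 19 were on the other. The difference was 1.07 on the log2 scale (2.10-fold, spread 0.57). Of its probes, one gave 0.85 and the other 1.30, and with normexp and an offset of 50 the difference was -0.28. Its longest run in common with either of them is the 7 bases of the seed.

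A further 6 miRNAs with detection on both arrays stayed within 2-fold under the reported setting. Over the 16 settings counted above, miR-4459 reached 2-fold in 4, miR-4466 in 2, and miR-4505 and miR-4507 in 1 each. miR-4516 and miR-4534 reached it in none. miR-4505 was higher by 0.91 on the log2 scale (spread 0.28), from 53.9 ± 8.18 to 159 ± 19.9 (SD, 20 spots each). Its value rests on 1 probe, at 107 and 311, since no spot of the other was well above background on either array. miR-4466, within the span of ARID1B, a subunit gene of a chromatin remodelling complex, was higher by 0.84 (spread 0.25), from 92.0 ± 13.6 to 258 ± 22.3 (SD, 19 spots each). miR-4459 was higher by 0.53 (spread 0.16), from 1808 ± 179 (SD, 20 spots) to 4094 ± 209 (SD, 19 spots), and its probes gave 0.24 and 0.74.

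miR-4507 was higher by 0.43 (spread 0.17), from 39.9 ± 2.28 (SD, 17 spots) to 84.4 ± 8.85 (SD, 20 spots). Its sequence is made of repeated CUGGG units and located within the immunoglobulin heavy chain locus (IGH). It shares runs of 15 bases with miR-1587, of 14 bases with miR-3620-5p, which was detected on neither array, and of 12 bases with miR-4505. Whether their probes read one another's signal was not tested. miR-4534 was equal within its spread, at 24.7 ± 3.69 (SD, 19 spots) and 40.7 ± 6.11 (SD, 20 spots), a difference of 0.07 (spread 0.30), and its probes gave -0.10 and 0.20. miR-4516, within the span of PKD1, the polycystin gene, was lower by 0.25 (spread 0.20), from 300.1 ± 28.2 to 397 ± 40.8 before scaling (SD, 20 spots each), and its 3 probes gave -0.11, -0.29 and -0.51. Without scaling the difference was 0.40, so its direction depends on the scaling. Its seed partner miR-4434 was not detected.

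**Figure D2:**
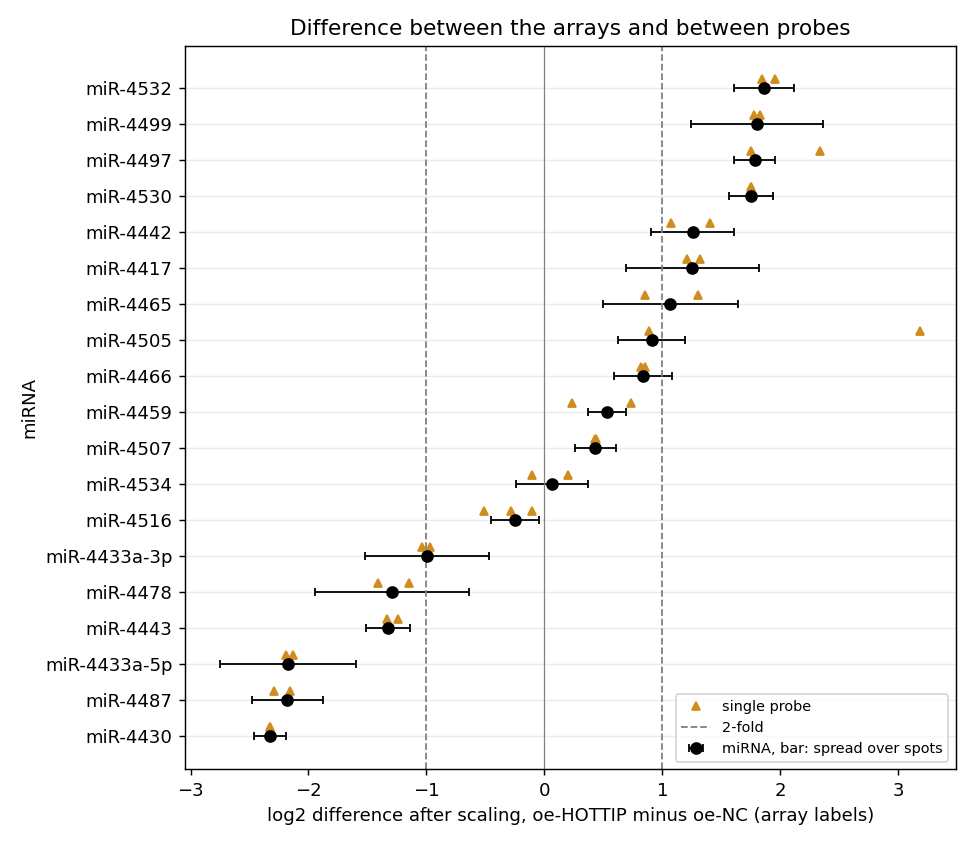
Log2 difference after scaling (oe-HOTTIP-labelled array minus oe-NC-labelled array) of the 19 miRNAs detected on both arrays, with the spread over spots as bars, single probes as triangles and 2-fold as dashed lines. Probes of 18 miRNAs lie on 1 side of 0, those of miR-4534 on both, and the second probe of miR-4505, at 3.19, stands far from the first.

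Repeated probes of a miRNA gave close differences. All probes of 18 of the 19 miRNAs had 1 sign, and the median gap between the lowest and the highest probe of a miRNA was 0.11 on the log2 scale. The largest gap was 2.30 for miR-4505, followed by 0.59 for miR-4497 and 0.50 for miR-4459. These probes were hybridized with the same labelled RNA and are not replicates of the groups.

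Where only 1 array detected a miRNA, its fold is a lower bound. The dim side was set to the miRNA's own signal or to the weakest signal detected on that array, whichever was higher. The oe-HOTTIP-labelled array alone detected 10 of the 137 miRNAs and the oe-NC-labelled array alone detected 1, against 129 and 67 of all miRNAs. Bounds of at least 2-fold were given by 9 of the 10, against 108 of the 129. The lowest detected signals, 0.976 and 2.43 before scaling, lie under the average of the negative controls, so the bounds are not strict. A higher floor was set at the signal at which 50% of miRNAs pass detection, 5.32 on the oe-NC-labelled array and 6.44 on the other, and with it 3 of the 9 still reached 2-fold.

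These 3 were miR-4455, miR-4440 and miR-4481. miR-4455 had 3.22 ± 1.63 (SD, 19 spots) on the oe-NC-labelled array, at the level of the negative controls, and 82.0 ± 5.41 (SD, 20 spots) on the oe-HOTTIP-labelled array. No spot was well above background on the first and all 20 were on the second. The bound was 16.2-fold higher, and 9.82-fold with the higher floor. miR-4440, within HDAC4, the gene of a histone deacetylase, had -0.55 ± 1.72 and 25.8 ± 3.74 (SD, 19 spots each), a bound of 16.8-fold that was 3.09-fold with the higher floor. miR-4481, within CAMK1D, a kinase gene, had -0.37 ± 2.74 (SD, 19 spots) and 21.3 ± 3.35 (SD, 20 spots), with bounds of 13.9-fold and 2.55-fold. With normexp and an offset of 50, the bound of miR-4455 was 0.62 on the log2 scale, under 2-fold, and miR-4440 and miR-4481 gave none. Both probes of each of these 3 miRNAs were bright on the oe-HOTTIP-labelled array and near 0 or at the level of the negative controls on the other.

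miR-4419a, miR-4502 and miR-4535 were closer to background on the oe-HOTTIP-labelled array. miR-4419a had -0.94 ± 2.33 (SD, 19 spots) and 12.4 ± 2.66 (SD, 18 spots), and its bound of 8.12-fold rests on 1 probe, at 24.7 on the oe-HOTTIP-labelled array, since the other stood at 0.14 there. miR-4502 had 0.58 ± 2.06 (SD, 19 spots) and 11.2 ± 2.96 (SD, 20 spots), a bound of 7.34-fold. miR-4535 had -1.79 ± 1.82 (SD, 17 spots) and 10.7 ± 2.88 (SD, 19 spots), a bound of 7.0-fold. With the higher floor these bounds were between 1.28-fold and 1.49-fold.

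The remaining miRNAs of this kind were miR-4462, miR-4486 and miR-4472, with bounds of 4.99-fold, 4.96-fold and 2.67-fold, of which none reached 2-fold with the higher floor, and miR-4433b-3p, described with miR-4433a. The only miRNA detected on the oe-NC-labelled array alone was miR-4436b-5p, at 3.37 ± 1.87 (SD, 18 spots) against 1.97 ± 1.60 (SD, 20 spots). Its bound was 2.18-fold lower, but none of its spots was well above background and its intensity was under the mean of the negative controls. miR-4436b-3p, from the other arm, was not detected.

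**Figure D3:**
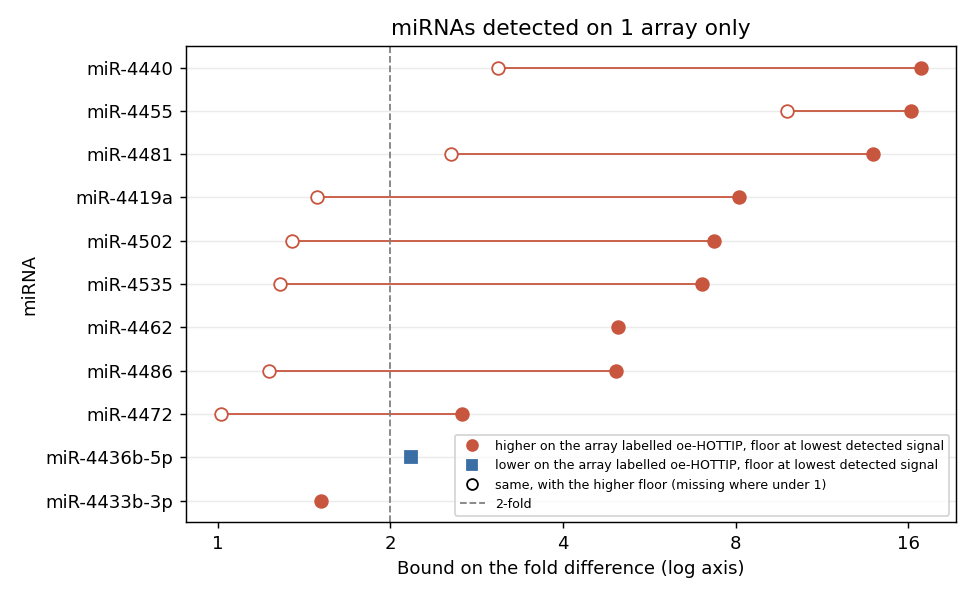
Bounds on the fold difference (log axis) of the 11 miRNAs detected on 1 array only, with the floor at the lowest detected signal (filled) and with the higher floor (open). Only miR-4455, miR-4440 and miR-4481 have open symbols to the right of the 2-fold line.

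The 107 miRNAs detected on neither array had intensities from -3.86 to 5.02 (median -1.08) on the oe-NC-labelled array and from -4.50 to 7.23 (median -0.80) on the oe-HOTTIP-labelled array. None of them had a spot well above background on either array. Their levels were not measurable at this signal over background, which does not show that they are absent from the exosomes.

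Neighbouring number ranges gave other counts. From miR-4251 to miR-4330, 8 were detected on both arrays, 5 of them at least 2-fold lower and 1 higher. From miR-4632 to miR-4804, 20 were detected on both arrays, 8 lower and 3 higher, where those from miR-4417 to miR-4540 had 5 lower and 7 higher of 19. With bounds included, the range from miR-4251 to miR-4330 had 9 lower and 3 higher of 15 detected miRNAs. That from miR-4632 to miR-4804 had 13 and 15 of 37, and that from miR-4417 to miR-4540 had 6 and 16 of 30. Median absolute log2 differences were 1.39, 1.15 and 1.26 in the same order, against 0.70 for all 261 miRNAs. With 1 array per group and few miRNAs per range, no order between the ranges was tested.

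The sequences held features that the numbering did not use. G made up a median of 33.3% of the bases of the 123 miRNAs with a sequence, against 27.3% for the 2248 miRNAs of the whole array with a sequence, and 52 of the 123 (42.3%) held GGG, against 32.7%. These letters were searched on the mature strand only. Of the miRNAs detected on the oe-HOTTIP-labelled array alone, 8 of 10 had a sequence, and 7 of these 8 held GGG (87.5%), against 33 of the 100 undetected ones (33.0%). Over the whole array, 62.4% of the miRNAs detected on the oe-HOTTIP-labelled array alone and 28.5% of those detected on neither held it, so the contrast runs across the array. The tetramer GGAG, known from earlier work as a motif of miRNAs sorted into exosomes, was held by 3 of the 8 (miR-4433b-3p, miR-4462 and miR-4481) and by 11 of the 100. Over the whole array the shares were close to these, with 33.0% of the miRNAs detected on the oe-HOTTIP-labelled array alone and 12.5% of those detected on neither. For the miRNAs detected on both arrays, 14 of 19 (73.7%) had a sequence, below the 80% set for such a comparison, so the comparison is void for them and their sequences stand only for themselves.

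RefSeq places the 23 detected miRNAs that have an entry at 24 loci on 13 chromosomes, since miR-4436b-5p has a pair of loci. Another annotated gene spans 17 of the 24 loci, and for 11 it is protein-coding. Strand was not compared, so a shared transcript is not implied.

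**Figure D4:**
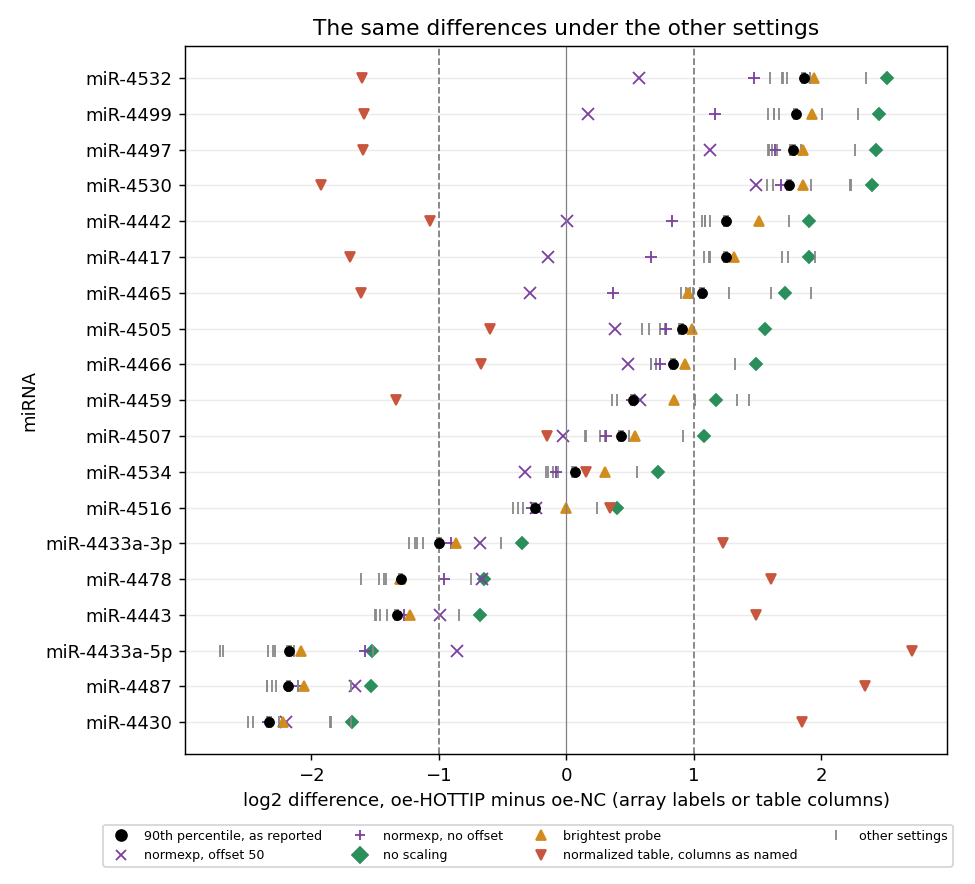
Log2 difference of the 19 miRNAs detected on both arrays under the reported setting (black) and the other settings, with 2-fold as dashed lines. Values with normexp and an offset of 50 lie closest to 0 for most of the higher miRNAs, and the authors' table, as its columns are named, lies on the opposite side of 0 for all miRNAs that differ by 2-fold.

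In the authors' table of normalized values, 29 of the 30 miRNAs were above the floor in at least 1 column, all but miR-4436b-5p. The column named for oe-NC followed the scanner's summed intensity of the oe-HOTTIP-labelled array, with a Spearman's rho across miRNAs of 1.00 (29 miRNAs), and that of its own array with 0.78 (19 miRNAs). The column named for oe-HOTTIP had 1.00 with the oe-NC-labelled array and 0.78 with its own (19 miRNAs each). These are descriptions across miRNAs that share the same arrays. In the table, miR-4430 was listed under oe-NC at 7.62 and under oe-HOTTIP at 9.47, and miR-4530 at 7.88 and 5.95, on the log2 scale. Table and scanner output thus run in opposite directions, and it is not known which of them carries the right names.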

How the data were processed

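The authors deposited the scanner output of 2 one-colour Agilent miRNA arrays, with a background-subtracted intensity per spot, and a table of log2 values that the methods describe as normalized by the 90th percentile in GeneSpring, with values not detected at a floor of 1e-06 or lower. Feature Extraction is version 11.5.1.1 in the file header and 10.10 in the labels. Control spots and outlier-flagged spots were left out (115 and 79 of 2740 spots of the miRNAs described), spots of a probe and then probes of a miRNA (2 to 4) were averaged, and the result was scaled to the 90th percentile of those miRNAs that both arrays detected, then put on the log2 scale. No spot was saturated. Detection is the scanner software's own call per miRNA. A 2-fold difference, as in the methods, was the limit, and with 1 array per group no test was run. SDs were pooled within probes and cover technical error only.

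The miRNAs, lists and settings were chosen with earlier results of these data known. Named were all miRNAs detected on both arrays, the 6 largest bounds in each direction among bounds of at least 2, the miRNAs nearest the threshold, hairpins with both arms on the array and shared seeds among these miRNAs where at least 1 of the miRNAs was detected, with the others that were detected added after their values were seen. The calls for miRNAs detected on both arrays were tested on data simulated from the oe-NC-labelled array. These data held no variation between cultures and no miRNA detected on 1 array only, so bounds were not tested. Every change planted in them lay well past 2-fold, so calls near the threshold were not tested either. Positions and sequences are from RefSeq GRCh38.p14 by name, while the array design names hg19. Normexp was run with limma 3.58.1 in R 4.3.3, and all else in Python 3.11.15 with pandas 2.3.3, numpy 2.4.6 and matplotlib 3.10.9.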

Additional observations from a re-analysis of the deposited data

How the results depend on the processing

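No paired analysis was possible because oe-NC and oe-HOTTIP have 1 array apiece, which also leaves no replicate to drop. The reported values were 6 lower and 16 higher miRNAs and a median log2 difference of 0.53, and the cause of the shifts below was not tested. Without scaling, 3 were lower and the median was 1.18, against 63 and 0.67 for all miRNAs. The median of all miRNAs, 0.02 as reported, was -0.15 with the 90th percentile of every miRNA, -0.11 with the median and -0.12 with quantile normalization, and the medians of the miRNAs described were 0.36, 0.40 and 0.65. With normexp and an offset of 50, 2 were lower and 2 higher and the median was -0.14, against 26, 8 and -0.33 for all miRNAs. Under this setting miR-4417 (-0.14) and miR-4465 (-0.28) turned negative. With normexp and no offset 7 were higher (53 of all miRNAs), and with the brightest probe 10 (95 of all, medians 0.84 and 0.13). With the higher floor for bounds 10 were higher (86 of all), since the floor bears on bounds alone. Calling a miRNA detected only where over 50% of its spots were well above background left 3 lower and 12 higher. Of all miRNAs, 39 were then lower and 106 higher. The median of the miRNAs described was then 0.74, against 0.48 for all miRNAs.

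The authors' table as its columns are named gave 13 lower and 6 higher and a median of -0.60, against 103, 104 and 0.19 for all miRNAs. Its log2 differences, with values at the floor read as 0, were 1.85 for miR-4430, 2.35 for miR-4487, 2.72 for miR-4433a-5p, 1.49 for miR-4443 and 1.61 for miR-4478. They were -1.60 for miR-4532, -1.58 for miR-4499, -1.59 for miR-4497, -1.92 for miR-4530, -1.07 for miR-4442, -1.70 for miR-4417 and -1.61 for miR-4465. For miRNAs at the floor in 1 column they were -4.04 (miR-4455), -2.51 (miR-4440), -2.21 (miR-4481), -1.31 (miR-4419a), -1.15 (miR-4502) and -0.54 (miR-4535).

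Of the 12 miRNAs detected on both arrays that differed by at least 2-fold, 10 kept their side of 0 over all 16 settings other than the table as named, the exceptions being miR-4417 and miR-4465, and miR-4430, miR-4487, miR-4497 and miR-4530 also stayed past 2-fold. Signal over background limits detection, and the 107 miRNAs detected on neither array have no difference under the reported setting.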
